A study of Homo sapiens with 12 samples.

Results

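The proteasome is the protease that degrades ubiquitin-tagged and damaged proteins, and 48 of the 19951 protein-coding genes counted here encode its subunits, activators, inhibitor and assembly chaperones. These 48 genes were chosen by symbol alone, as the protein-coding genes named PSMA to PSMG with a number, out of 58735 genes in the table. They fall into 15 genes of the 20S core, 3 of the immunoproteasome, 1 of the thymoproteasome, 17 of the 19S regulatory particle, 5 activators and inhibitor, and 7 assembly chaperones.

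HaCaT is an immortalized line of skin keratinocytes and TIGK is an immortalized line of gingival keratinocytes, and both were grown to confluence in the same keratinocyte medium. Polyadenylated RNA was sequenced from untreated TIGK, untreated HaCaT, and from both lines exposed to 5 mM H2O2 for 3 h. Each of these 4 groups holds 3 libraries. Each tissue is represented by 1 line, so a difference between the lines cannot be told apart from a difference between tissues. No source says that the libraries of a group came from separate cultures, so p-values measure the spread between these libraries, which may be technical. In bulk RNA, fewer cells of a kind and less RNA per cell cannot be told apart.

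The 20S core is a barrel of stacked rings. The outer rings are built of alpha subunits (PSMA genes), which gate the entry, and the inner rings of beta subunits (PSMB genes), of which PSMB5, PSMB6 and PSMB7 carry the chymotrypsin-like, caspase-like and trypsin-like sites. The 19S particle caps the core; its base holds a ring of ATPases (PSMC genes) that unfold substrates, and its lid removes ubiquitin chains. Interferon induces PSMB8, PSMB9 and PSMB10, which replace the catalytic subunits in the immunoproteasome and shape the peptides presented on class I molecules. Oxidized proteins can be degraded by the 20S core without ubiquitin, and NFE2L1 and NFE2L2 are known activators of proteasome genes that bind antioxidant response elements.

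Promoters of 5 members are given first, 4 of them of genes that passed the limit in a comparison below and that of PSME2, which passed in none, as the neighbour and partner of PSME1. RefSeq promoters of GRCh38.p14, which run from 250 bases before to 50 bases after the annotated start, were found for 42 of the 48 genes. The capitals mark matches, on either strand, to the antioxidant response element core TGACNNNGC, the CCAAT box or the interferon response core GAAANNGAA. A match on the other strand is printed as its reverse complement. PSMB3 is a beta ring gene, PSMB10 an immunoproteasome gene, PSME1 and PSME2 are a neighbouring pair of activator genes, and PSME4 is the member that fell in both lines. The matches of PSMB3 and PSMB10 do not stand for those of their classes.
PSMB3 (chr17:38752491-38752790, plus strand): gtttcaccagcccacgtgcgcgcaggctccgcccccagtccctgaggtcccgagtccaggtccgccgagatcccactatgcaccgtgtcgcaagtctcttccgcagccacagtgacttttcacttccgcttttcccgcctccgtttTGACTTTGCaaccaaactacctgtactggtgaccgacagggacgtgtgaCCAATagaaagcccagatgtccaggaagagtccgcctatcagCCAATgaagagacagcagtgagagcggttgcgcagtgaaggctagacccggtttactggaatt
PSMB10 (chr16:67936801-67937100, minus strand): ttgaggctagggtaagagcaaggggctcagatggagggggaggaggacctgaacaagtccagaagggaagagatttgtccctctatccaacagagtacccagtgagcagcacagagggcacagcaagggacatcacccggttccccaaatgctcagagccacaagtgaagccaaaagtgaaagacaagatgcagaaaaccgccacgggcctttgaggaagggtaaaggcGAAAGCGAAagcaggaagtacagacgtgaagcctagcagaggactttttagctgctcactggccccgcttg
PSME1 (chr14:24135944-24136243, plus strand): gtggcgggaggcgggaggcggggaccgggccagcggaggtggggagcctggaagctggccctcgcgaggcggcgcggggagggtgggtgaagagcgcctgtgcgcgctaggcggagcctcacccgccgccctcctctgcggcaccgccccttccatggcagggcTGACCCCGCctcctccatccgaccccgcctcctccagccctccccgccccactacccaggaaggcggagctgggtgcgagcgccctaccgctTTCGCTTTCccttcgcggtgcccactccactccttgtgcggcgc
PSME2 (chr14:24146561-24146860, minus strand): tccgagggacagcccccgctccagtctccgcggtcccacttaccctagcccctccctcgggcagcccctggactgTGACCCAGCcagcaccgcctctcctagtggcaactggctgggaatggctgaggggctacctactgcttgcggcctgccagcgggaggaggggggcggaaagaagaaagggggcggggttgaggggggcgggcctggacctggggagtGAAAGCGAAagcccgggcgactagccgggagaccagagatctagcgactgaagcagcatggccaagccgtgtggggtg
PSME4 (chr2:53970944-53971243, minus strand): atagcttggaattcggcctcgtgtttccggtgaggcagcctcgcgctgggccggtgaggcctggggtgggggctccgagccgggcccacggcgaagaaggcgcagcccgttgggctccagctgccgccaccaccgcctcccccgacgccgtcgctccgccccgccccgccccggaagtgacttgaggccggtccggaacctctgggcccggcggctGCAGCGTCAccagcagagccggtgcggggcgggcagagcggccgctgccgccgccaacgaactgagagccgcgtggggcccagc

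PSME1 and PSME2, which encode the alpha and beta subunits of the interferon-inducible activator PA28, each held an antioxidant response core and an interferon response core. In PSME1 they began at positions -86 and 7 from the start, and in PSME2 at -175 and -28. PSMB10 held an interferon response core at -21. PSMB8 held no match in the promoter used, and PSMB9 held a CCAAT box at -243 and an antioxidant response core at -148. PSMB3 held an antioxidant response core at -104 and CCAAT boxes at -55 and -13, and PSME4 held an antioxidant response core at -34. Of the other constitutive beta ring genes with a promoter here, PSMB2 and PSMB5 held a CCAAT box alone and PSMB4 an interferon response core alone. The antioxidant response core was in 13 of the 42 promoters (31.0%), against 13.3% of all 35116 promoters in the table. CCAAT was in 19 of 42 (45.2%), against 34.6% of all promoters. The interferon response core was in 7 of 42 (16.7%), against 8.11% of all. The heat shock core GAANNTTC was in 0 of 42, against 6.77% of all. These shares set a single promoter per member against every promoter in the table, whether or not its gene was expressed here. Member promoters also had a median GC content of 62%, against 58.7% for all promoters. The part of GC content in these shares was not tested. A match describes the letters of the promoter and not binding by a factor.

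Library totals ranged from 30426401 to 49034244 counts. All 6 keratinocyte markers examined were expressed in every group, with a summed level of 27280 to 38400 CPM (counts scaled to library totals). The summed level of 4 fibroblast markers reached at most 20.3 CPM, mostly COL1A1, with COL1A2 at 0 counts in every library. The summed melanocyte, leukocyte and endothelial markers reached at most 2.49, 0.157 and 1.60 CPM. Proteasome genes took 0.572% to 0.626% of counts in untreated TIGK and 0.663% to 0.664% after H2O2, and 0.527% to 0.537% in untreated HaCaT and 0.596% to 0.670% after H2O2. The lowest TIGK control value was that of replicate 3 and the highest HaCaT H2O2 value was that of replicate 3. These libraries stood apart from the others of their groups for many members, and counts that rest on them are given with and without them. Mitochondrial genes took 3.33% to 3.45% of counts in untreated TIGK and 1.39% to 1.501% after H2O2, and 6.10% to 6.26% and 3.30% to 3.51% in HaCaT. Leaving these genes out of the library totals changed the number of members that rose from 25 to 20 in HaCaT and left it at 9 in TIGK.

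Of the 48 genes, 46 reached a mean raw count of 10 and were tested, and these are the genes counted below. The other members had 0 counts in every library: PSMA8 encodes an alpha subunit known from testis and PSMB11 the beta subunit of the thymoproteasome. A count of 0 allows up to 3 counts per library, which is 0.0612 to 0.0986 CPM, for counting error only.

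Levels were compared between genes per length, as RPKM, the counts divided by gene length and by the scaled library total. The 20S core summed to 825 ± 77.5 RPKM in untreated TIGK (SD, n = 3 here and below) and to 956 ± 10.5 after H2O2. In HaCaT it summed to 746 ± 21.3 and 987 ± 143. The 3 treated libraries lay above the 3 untreated ones in both lines, by a log2 ratio of the means of 0.21 in TIGK and 0.40 in HaCaT. Without TIGK control replicate 3 the ratio in TIGK was 0.14, and without HaCaT H2O2 replicate 3 that in HaCaT was 0.29. The 19S particle summed to 656 ± 34.8 and 715 ± 6.74 RPKM in untreated and treated TIGK, and to 604 ± 1.89 and 690 ± 41.0 in HaCaT. Here too the treated libraries lay above the untreated ones, with log2 ratios of 0.12 and 0.19.

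The immunoproteasome genes were the lowest particle, at 14.2 ± 1.15 RPKM in untreated TIGK and 17.003 ± 0.443 after H2O2. In HaCaT they summed to 5.98 ± 0.572 and 8.23 ± 1.29 RPKM, and no HaCaT library reached the lowest TIGK library. The assembly chaperones summed to 99.1 ± 6.26 and 110 ± 1.95 RPKM in untreated and treated TIGK and to 105 ± 3.04 and 128 ± 8.47 in HaCaT. The activators and inhibitor were the flattest class: 150 ± 1.80 and 153 ± 3.21 RPKM in TIGK, where treated and untreated libraries overlapped, and 144 ± 0.684 and 157 ± 4.12 in HaCaT, where they did not. These sums carry no test. Within the core, the highest gene in every group was PSMA7, an alpha subunit, with 180 RPKM in untreated TIGK and 161 in untreated HaCaT. In the 19S particle it was PSMD2, a scaffold of the base, with 102 and 139 RPKM.

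**Figure D1:**
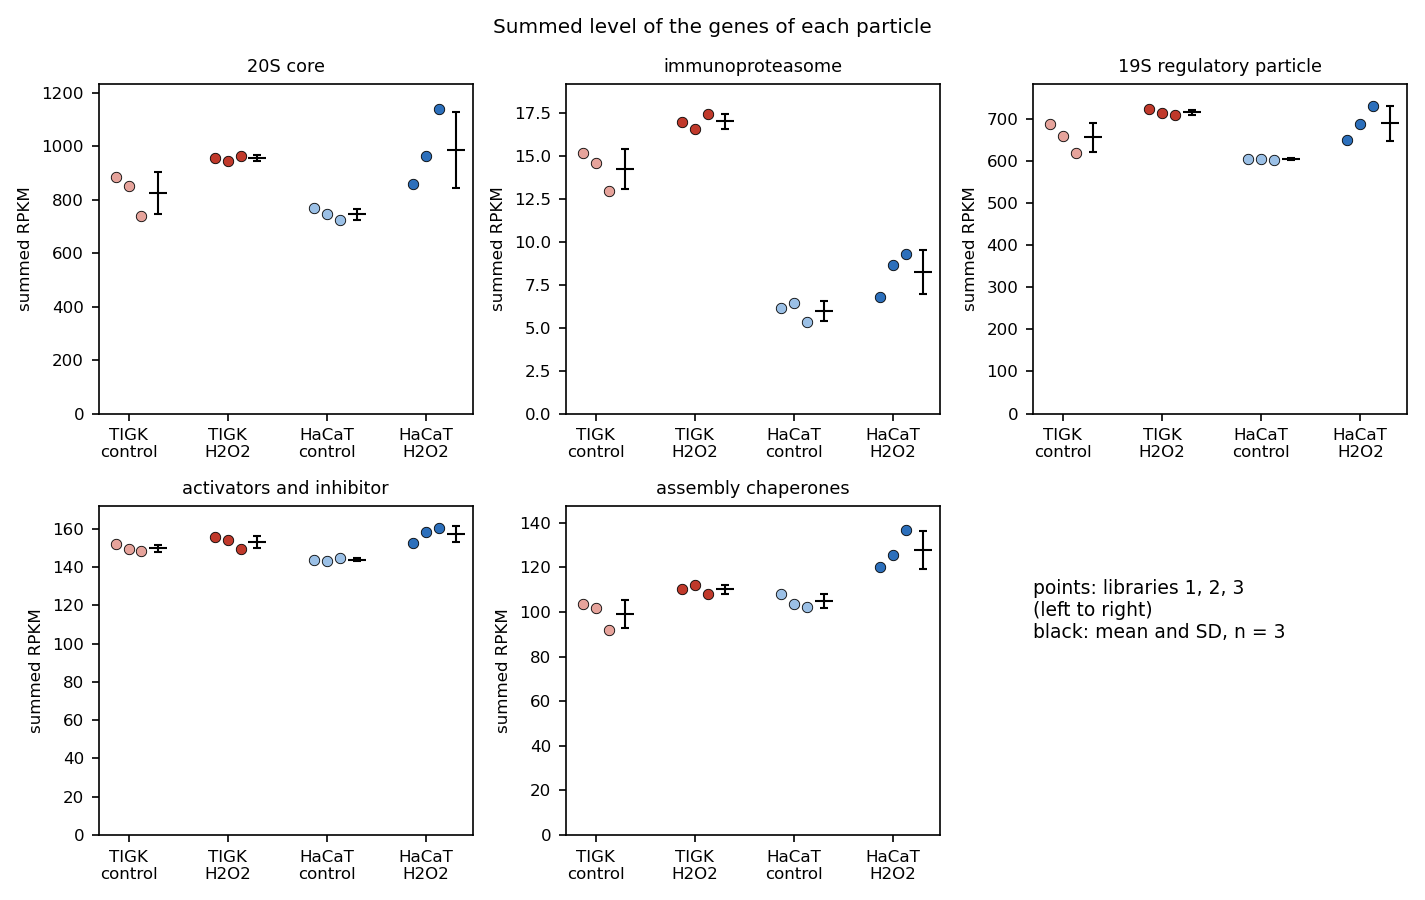
Summed RPKM of the genes of each particle (vertical axis, from 0) in each of the 12 libraries, with the mean and SD of each group in black. In the 20S core, the 19S particle and the chaperones the treated libraries lie above the untreated libraries of the same line, and in the immunoproteasome panel all HaCaT libraries lie below all TIGK libraries.

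The response of TIGK to H2O2 compares 3 treated with 3 untreated TIGK libraries. Among the 46 members, 9 rose, 1 fell and 36 did not pass the limit (edgeR quasi-likelihood test, Benjamini-Hochberg adjusted p under 0.01 over all 16618 genes tested), against 10.2% of all genes that rose and 12.9% that fell. The median log2 fold change of the members was 0.18 and 39 of them were above 0, against a median of 0.0084 over all genes. Without TIGK control replicate 3 the members' median was 0.11. The genes that rose were spread over the particles. They were PSMA4 of the alpha ring, PSMB6 of the beta ring, PSMC2, PSMC4 and PSMC5 of the ATPase ring, PSMD4 and PSMD7 of the 19S particle, the activator PSME1 and the chaperone PSMD10. This count rested on single libraries: it was 2 without TIGK control replicate 3, 4 without TIGK H2O2 replicate 1 and 5 without TIGK H2O2 replicate 3, and it was 18 and 16 without HaCaT H2O2 replicates 1 and 3, which enter through the scaling and the spread that all groups share. PSME1 and PSMD7 kept their calls under all 19 alternative fits.

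The response of HaCaT compares the treated and untreated HaCaT libraries. Here 25 members rose, 2 fell and 19 did not pass the limit, against 18.9% of all genes that rose and 15.2% that fell. The median log2 fold change was 0.29 and 41 members were above 0, against a median of 0.038 over all genes. The count of members that rose was 18 to 26 when any 1 library was left out, and 20 without HaCaT H2O2 replicate 3. Of the 20S core 10 of 14 tested genes rose, of the 19S particle 9 of 17, of the chaperones 3 of 7, of the activators and inhibitor 2 of 5, and of the immunoproteasome 1 of 3. In TIGK the same classes counted 2 of 14, 5 of 17, 1 of 7, 1 of 5 and 0 of 3.

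Abundance and gene length moved with the response. Of the 46 members 20 lay in the shortest of 3 length classes, 16 in the middle and 10 in the longest. Among the 6588 genes with a mean count of at least 1000, 16.4% rose in TIGK and 31.3% in HaCaT, against 23.7% and 63.2% of the 38 members in that class. In HaCaT the median log2 fold change of all genes fell from 0.18 in the shortest class through 0.092 to -0.093 in the longest. The members in these classes had medians of 0.38, 0.21 and 0.10. In TIGK all genes had 0.088, 0.035 and -0.078 and the members 0.24, 0.092 and 0.096. The members lay above the median of all genes in each class, and the part of length in the result was not tested further.

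**Figure D2:**
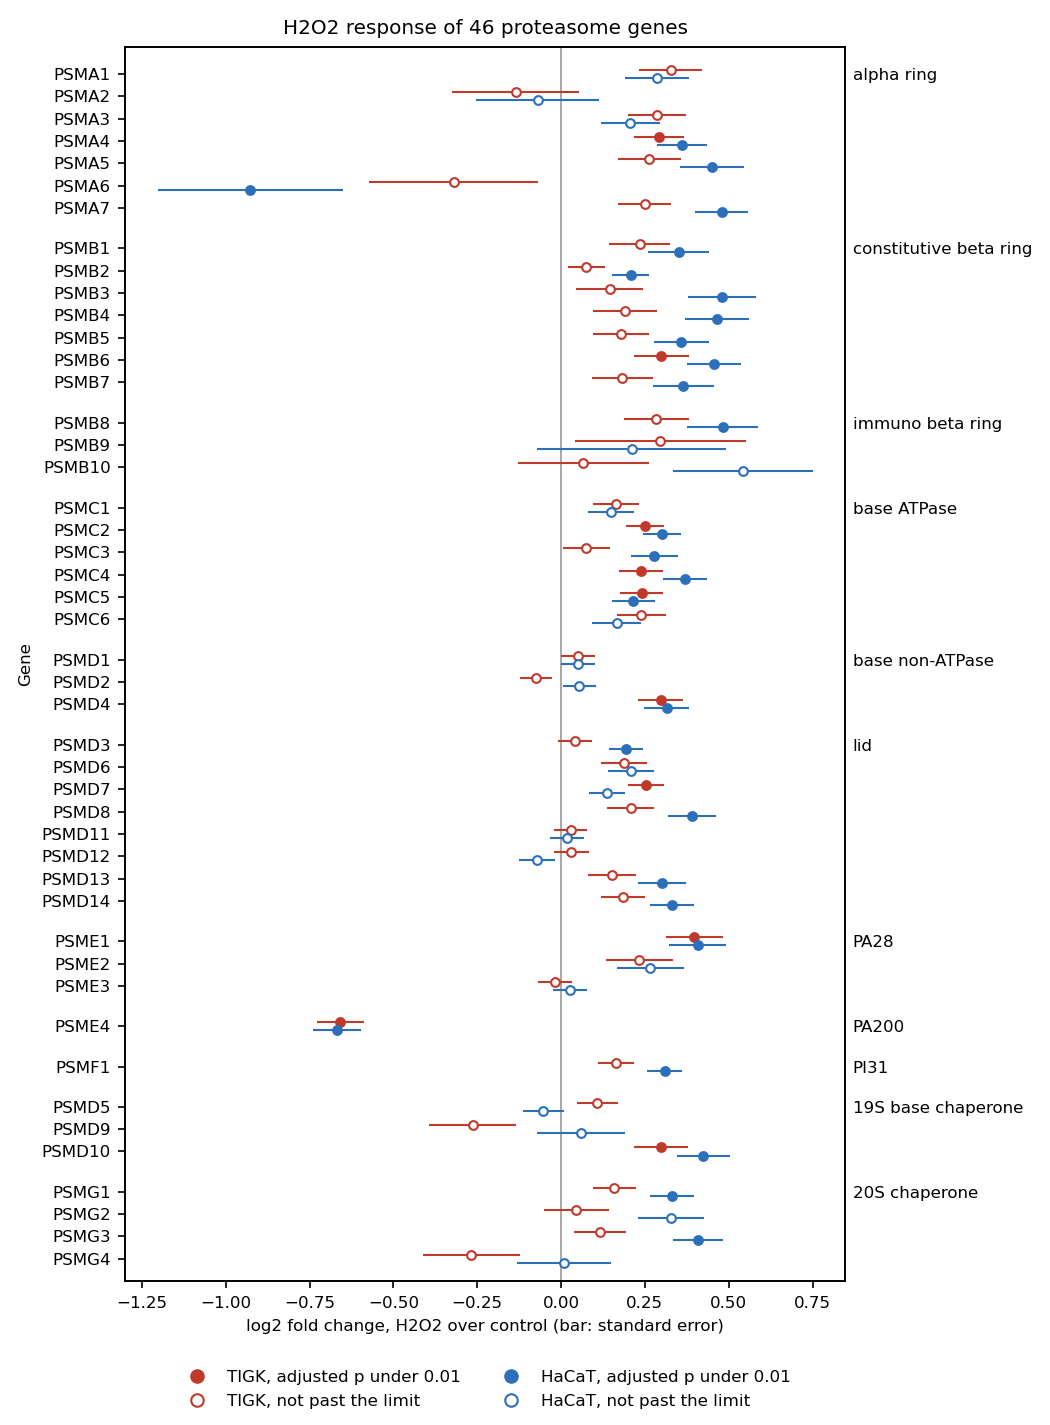
Log2 fold change of H2O2 over control (horizontal axis, bars give the standard error) for the 46 tested genes, in TIGK (red) and HaCaT (blue), grouped by their place in the proteasome. Filled points passed an adjusted p of 0.01: 9 rose and 1 fell in TIGK, 25 rose and 2 fell in HaCaT, and PSME4 lies far to the left in both lines.

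All 7 constitutive beta ring genes rose in HaCaT, while 1 of 7 rose in TIGK. PSMB5, the chymotrypsin-like subunit (ENSG00000100804, chr14:23016543-23035230, minus strand, GRCh38 here and below), had normalized counts (counts scaled to a common library size) of 4994, 4776 and 4785 in untreated HaCaT and 5455, 6243 and 6972 after H2O2. No treated library overlapped an untreated one, and the log2 fold change was 0.36 (SE 0.083, adjusted p = 0.00169). The call was lost without HaCaT H2O2 replicate 2 (adjusted p = 0.0144, edgeR). In TIGK the counts were 5302, 5194 and 4245 without and 5645, 5287 and 5751 with H2O2, which overlap, and the log2 fold change was 0.18 (SE 0.083, adjusted p = 0.101).

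PSMB6, the caspase-like subunit (ENSG00000142507, chr17:4796144-4798503, plus strand), was the beta ring gene that rose in both lines. Its counts were 4355, 3950.3 and 3618 in untreated TIGK and 4798, 4841 and 5028 after H2O2, and the log2 fold change was 0.30 (SE 0.081, adjusted p = 0.00788). In HaCaT they were 3991, 3737 and 3543 without and 4481, 5151 and 5833 with H2O2, with a log2 fold change of 0.46 (SE 0.082, adjusted p = 0.000186). The treated libraries were the higher ones in each line, but the call in TIGK was lost with the replicate block and without TIGK control replicate 2 or 3, any 1 TIGK H2O2 replicate, or HaCaT control replicate 2, with an adjusted p of at most 0.0459.

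PSMB7, the trypsin-like subunit (ENSG00000136930, chr9:124353466-124415444, minus strand), had 9032, 8531 and 8470.4 in untreated and 9835, 10344 and 13339 in treated HaCaT, where replicate 3 was the highest. Its log2 fold change was 0.36 (SE 0.091, adjusted p = 0.00297), and the call was lost in the fit of the HaCaT groups alone and without TIGK control replicate 2, TIGK H2O2 replicate 2 or 3, HaCaT control replicate 2 or 3, or HaCaT H2O2 replicate 3, with an adjusted p of at most 0.0151. In TIGK the counts were 6903, 6411 and 5523 without and 7194, 7018 and 7159 with H2O2, and the log2 fold change was 0.18 (SE 0.091, adjusted p = 0.129). PSMB3, a structural subunit, rose in HaCaT, from 3099.8, 2976 and 2717 to 3339.9, 4016 and 4909, a log2 fold change of 0.48 (SE 0.10, adjusted p = 0.000787). The other beta ring genes, PSMB1, PSMB2 and PSMB4, rose by 0.35, 0.21 and 0.46 on the log2 scale in HaCaT, and their calls were kept in 8, 7 and 19 of 19 alternative fits. The number of beta ring genes past the limit in HaCaT was 4 in the fits without TIGK control replicate 2, TIGK H2O2 replicate 2 or 3, HaCaT control replicate 3, or HaCaT H2O2 replicate 2 or 3, and 5 to 7 in the fits that left out 1 of the other libraries.

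In the alpha ring, PSMA4 rose in both lines and PSMA5 and PSMA7 rose in HaCaT. PSMA4 had a log2 fold change of 0.29 (SE 0.076, adjusted p = 0.00553) in TIGK and 0.36 (SE 0.076, adjusted p = 0.000767) in HaCaT. Its call was kept in 15 of 19 alternative fits in TIGK and in all 19 in HaCaT. PSMA7, the most abundant core gene, had a log2 fold change of 0.25 (SE 0.079, adjusted p = 0.0189) in TIGK and 0.48 (SE 0.079, adjusted p = 8.33e-05) in HaCaT. PSMA5 had a log2 fold change of 0.26 in TIGK, which did not pass, and one of 0.45 (SE 0.10, adjusted p = 0.000853) in HaCaT. PSMA1, PSMA2 and PSMA3 did not pass the limit in either line.

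PSMA6 (ENSG00000100902, chr14:35278633-35317493, plus strand) was the only core gene that fell, and it did so in HaCaT. Its counts were 76.4, 99.5 and 65.2 in untreated and 32.3, 53.6 and 40.6 in treated HaCaT, a log2 fold change of -0.93 (SE 0.28, adjusted p = 0.00997). In TIGK they were 143, 96.4 and 100.3 without and 94, 69.5 and 108 with H2O2, which overlap, and the log2 fold change was -0.32 (SE 0.25, adjusted p = 0.343). The fall is uncertain for several reasons. The call was lost in 9 of 19 alternative fits, among them those without TIGK control replicate 3, TIGK H2O2 replicate 1, HaCaT control replicate 1 or 2, or HaCaT H2O2 replicate 1 or 3, with an adjusted p of at most 0.052. The counts of this gene are also low, as are those of PSMA2, and 70.4% of its coding bases lie in a second gene of the table.

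Such shared sequence touched 5 members. Exons of GENCODE 44 showed over 50% of coding bases shared with another protein-coding gene on the same strand for PSMA2 (97.8%), PSMA1 (88.6%), PSMA6 (70.4%), PSMD9 (58.7%) and PSMB10 (58.3%). Their mean raw counts were 149, 812, 82.5, 273 and 109, while the second genes held at most 40.9 counts. PSMB9 (133) and PSMG4 (408) were also low, and neither shared over 6.00% of coding bases. The sources used here do not state how reads over several genes were treated or whether strand was used, so the levels of these 5 genes are uncertain, and the part of the overlap in their low counts was not tested. Without these 5 genes, 9 of 41 members rose in TIGK and 25 of 41 in HaCaT. In all, 29 members overlap another gene, 13 of them on the same strand and 25 on the opposite strand. Of 32 pseudogene rows of the family, 3 had a mean count of at least 10: PSMC1P1 (115), PSMA6P1 (51.2) and PSMD12P (15.1).

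**Figure D3:**
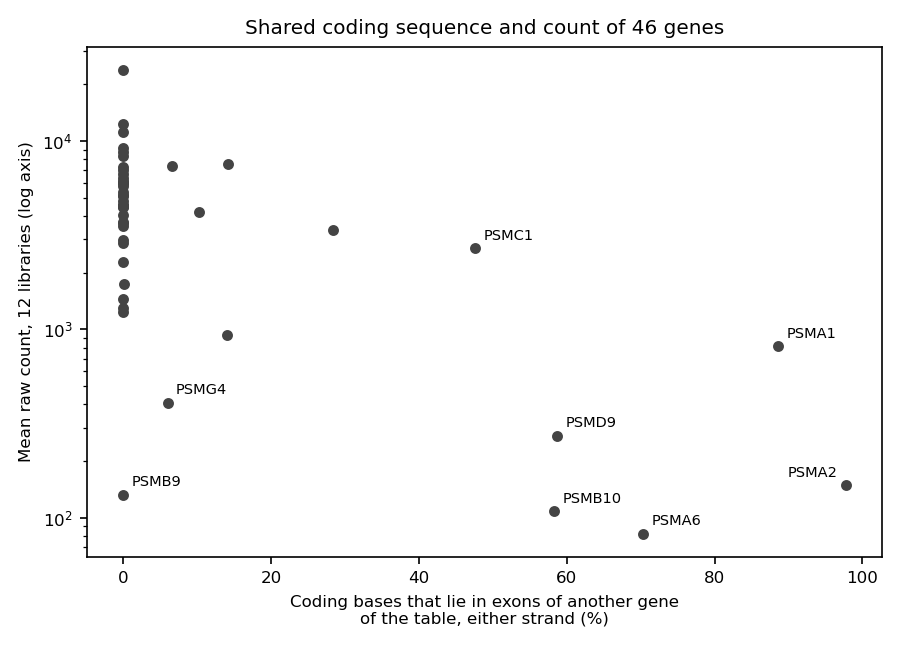
Mean raw count over the 12 libraries (log axis) against the percentage of coding bases that lie in exons of another gene of the table, for the 46 tested genes. The 5 genes above 50% lie at mean counts of 82.5 to 812, at the low end of the family, as do PSMB9 and PSMG4, which share little.

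The immunoproteasome genes rose in HaCaT in 1 of 3 cases and in TIGK in 0 of 3. PSMB8, the inducible counterpart of PSMB5 (ENSG00000204264, chr6:32840717-32844703, minus strand), had 482, 465 and 438 in untreated and 543, 663 and 730.2 in treated HaCaT, a log2 fold change of 0.48 (SE 0.11, adjusted p = 0.00108). In TIGK it had 1257, 1240.0 and 1040.1 without and 1478, 1350.4 and 1479 with H2O2, a log2 fold change of 0.28 (SE 0.10, adjusted p = 0.0295). Treated and untreated libraries did not overlap in either line. PSMB9, the counterpart of PSMB6 (ENSG00000240065, chr6:32844136-32859585, plus strand), had a log2 fold change of 0.30 (SE 0.26, adjusted p = 0.393) in TIGK and 0.21 (SE 0.28, adjusted p = 0.574) in HaCaT, with overlapping libraries in both. PSMB10, the counterpart of PSMB7 (ENSG00000205220, chr16:67934502-67937087, minus strand), had a log2 fold change of 0.07 (SE 0.19, adjusted p = 0.822) and 0.54 (SE 0.21, adjusted p = 0.0401).

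In the 19S base, PSMC2, PSMC4 and PSMC5 of the ATPase ring rose in both lines, by 0.25, 0.24 and 0.24 in TIGK and 0.30, 0.37 and 0.22 in HaCaT on the log2 scale. PSMC3 rose in HaCaT, by 0.28, a call that was kept in 9 of 19 alternative fits and was lost without any 1 HaCaT control replicate. PSMC1 and PSMC6 did not pass in either line. The calls of PSMC5 were kept in 14 of 19 alternative fits in TIGK and in 3 of 19 in HaCaT, where DESeq2 did not make it, and those of PSMC4 in 10 and 19. PSMD4, a receptor that binds ubiquitin chains, had 4906, 4719.6 and 4309 in untreated and 5689, 5760.4 and 5682 in treated TIGK, and 4609, 4504 and 4267 without and 5205, 5224 and 6214 with H2O2 in HaCaT. All treated libraries lay above the untreated ones of their line, with log2 fold changes of 0.30 (SE 0.067, adjusted p = 0.00197) and 0.31 (SE 0.067, adjusted p = 0.000882). The call in TIGK was lost without TIGK control replicate 3 (adjusted p = 0.0134, edgeR). The scaffolds PSMD1 and PSMD2 did not pass in either line, with log2 fold changes between -0.075 and 0.055.

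In the lid, PSMD3, PSMD8, PSMD13 and PSMD14 rose in HaCaT and PSMD7 rose in TIGK. The calls of PSMD8 and PSMD14 were kept in all 19 alternative fits, that of PSMD13 in 15 and that of PSMD3 in 9, with an adjusted p of at most 0.0811. PSMD8 rose most, from 3207, 3022 and 2782 to 3557, 3993 and 4259.6 in HaCaT, a log2 fold change of 0.39 (SE 0.071, adjusted p = 0.000228). Its log2 fold change in TIGK was 0.21 (SE 0.07, adjusted p = 0.0269). PSMD14, the deubiquitinase of the lid, had a log2 fold change of 0.19 in TIGK, which did not pass, and one of 0.33 (SE 0.065, adjusted p = 0.000448) in HaCaT. PSMD7, its partner, was the member called in TIGK alone, with 0.25 (SE 0.053, adjusted p = 0.00103) in TIGK and 0.14 (SE 0.054, adjusted p = 0.0439) in HaCaT. PSMD6, PSMD11 and PSMD12 did not pass in either line.

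The activators moved in opposite directions. PSME4 (ENSG00000068878, chr2:53864067-53970840, minus strand), which encodes the nuclear activator PA200, had 7410.2, 7203 and 8365 in untreated TIGK and 4787, 4922 and 4847 after H2O2. In HaCaT it had 6946, 6761 and 7073 without and 4939.8, 4109.6 and 4016 with H2O2. Every treated library lay below every untreated library of either line. The log2 fold changes were -0.66 (SE 0.071, adjusted p = 9.76e-07) in TIGK and -0.67 (SE 0.071, adjusted p = 7.06e-07) in HaCaT, and both calls were kept under all 19 alternative fits.

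PSME1 (ENSG00000092010, chr14:24136158-24138967, plus strand) rose in both lines. Its counts were 1206, 1302 and 1156 in untreated and 1635, 1605 and 1589 in treated TIGK, a log2 fold change of 0.40 (SE 0.085, adjusted p = 0.00128). In HaCaT they were 1381, 1327 and 1157 without and 1574, 1614 and 1939 with H2O2, a log2 fold change of 0.41 (SE 0.085, adjusted p = 0.000712). The libraries did not overlap within either line. Its partner PSME2 (ENSG00000100911, chr14:24143362-24147570, minus strand) had a log2 fold change of 0.23 (SE 0.10, adjusted p = 0.0753) and 0.27 (SE 0.10, adjusted p = 0.0362). PSME3, the nuclear PA28 gamma, had a log2 fold change of -0.02 and 0.03 and did not pass. PSMF1, the inhibitor PI31, had a log2 fold change of 0.16 (SE 0.053, adjusted p = 0.0207) in TIGK and rose in HaCaT, by 0.31 (SE 0.052, adjusted p = 0.000107).

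Among the assembly chaperones, PSMD10 (gankyrin), which helps to build the 19S base, rose in both lines. It had 1954, 1898 and 1584 in untreated and 2162, 2261 and 2259.6 in treated TIGK, a log2 fold change of 0.30 (SE 0.08, adjusted p = 0.00707). In HaCaT it had 2231, 2174 and 2097 without and 2669, 2811 and 3245 with H2O2, a log2 fold change of 0.42 (SE 0.079, adjusted p = 0.000272). The call in TIGK was lost with the replicate block and without TIGK control replicate 3, any 1 TIGK H2O2 replicate, or HaCaT control replicate 1 or 2, with an adjusted p of at most 0.0462. The 20S chaperones PSMG1 and PSMG3 rose in HaCaT, by 0.33 and 0.41. Their values in TIGK were 0.16 and 0.12, which did not pass. PSMG2, PSMG4, PSMD5 and PSMD9 did not pass in either line.

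Counting calls side by side, 8 members rose in both lines, 17 rose in HaCaT alone, 1 rose in TIGK alone, 1 fell in both and 1 fell in HaCaT alone. Of those that rose in both, PSME1 alone kept its calls in all 19 alternative fits in each line. The shares of all genes with such joint calls were not computed. The side-by-side counts do not show that the lines responded differently, so the difference of the responses, TIGK minus HaCaT, was tested for each gene. None of the 46 members passed (0 higher and 0 lower by edgeR, 0 by DESeq2), against 2.32% of all genes with a higher and 2.98% with a lower value. At an unadjusted p under 0.05 there were 3 members, PSMB3, PSMD3 and PSMG3, all with a lower value in TIGK. The share of all genes at this looser limit was not computed, so these 3 cannot be read against it. The lowest adjusted p was 0.0831, for PSMG3, with a difference of -0.29 (SE 0.11). The median difference over the members was -0.13, with 33 of 46 below 0, against -0.042 over all genes. It was -0.066 to -0.042 without replicate 2 or 3 of either H2O2 group, or without replicate 1 or 2 of the TIGK controls, and in these fits the median over all genes moved by -0.0079 to 0.067. From the shortest to the longest length class, the members had medians of -0.18, -0.059 and -0.0059, against -0.11, -0.059 and 0.019 over all genes. The part of length in the difference was not tested. All 7 constitutive beta ring genes and all 4 chaperones of the 20S core lay below 0, with differences of -0.34 to -0.12 and -0.29 to -0.17. Other classes were mixed: 3 of 7 tested alpha ring genes and 3 of 6 genes of the ATPase ring lay above 0. The share of all genes below 0 was not computed. For PSMB5 the difference was -0.18 (SE 0.12) and for PSME1 -0.01 (SE 0.12). A difference that did not pass does not show that the lines responded alike.

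The untreated lines were compared next, as HaCaT over TIGK; this comparison uses the same control libraries as the responses above. Of the 46 members 7 were higher and 19 lower in HaCaT, against 29.1% of all genes higher and 30.8% lower. The median log2 fold change was -0.17, against -0.0070 over all genes. The number of higher members was 4 without TIGK control replicate 3, HaCaT control replicate 1 or HaCaT control replicate 2. After H2O2, 8 members were higher and 13 lower in HaCaT, against 30.2% and 29.8% of all genes, with a median of -0.064 against 0.018. This median was -0.16 without HaCaT H2O2 replicate 3, -0.14 without TIGK H2O2 replicate 2, and -0.11 without TIGK control replicate 2 or TIGK H2O2 replicate 3. The number of lower members after H2O2 was 20 without HaCaT H2O2 replicate 3.

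Of the immunoproteasome genes 3 of 3 were lower in untreated HaCaT and 2 of 3 after H2O2. In the untreated comparison these 3 genes had the lowest values of all members. After H2O2 PSMA6 lay between PSMB8 and PSMB9, and PSMB10 was nearer to 0 than several other members. For PSMB8 the untreated counts given above, 1040 to 1257 in TIGK and 438 to 482 in HaCaT, are a log2 fold change of -1.35 (SE 0.10, adjusted p = 7.92e-10). After H2O2 the log2 fold change was -1.15 (SE 0.10, adjusted p = 5.98e-09). PSMB9 had 175, 149 and 153 in untreated TIGK and 85.6, 114 and 40.5 in untreated HaCaT, a log2 fold change of -0.995 (SE 0.27, adjusted p = 0.00312). After H2O2 it had 151, 247 and 186 and 81.2, 85.1 and 110.0, a log2 fold change of -1.08 (SE 0.27, adjusted p = 0.00146). The lines did not overlap, but the untreated call was lost without TIGK control replicate 1 or HaCaT control replicate 3 (adjusted p of at most 0.016) and the treated call without TIGK H2O2 replicate 2 (0.0111). PSMB10 had 137, 122 and 135 in untreated TIGK and 64.2, 76.3 and 63.2 in untreated HaCaT, a log2 fold change of -0.96 (SE 0.20, adjusted p = 0.00038). After H2O2 it had 137, 129 and 146 and 71.2, 119 and 106, and the log2 fold change of -0.48 (SE 0.20, adjusted p = 0.0386) did not pass.

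**Figure D4:**
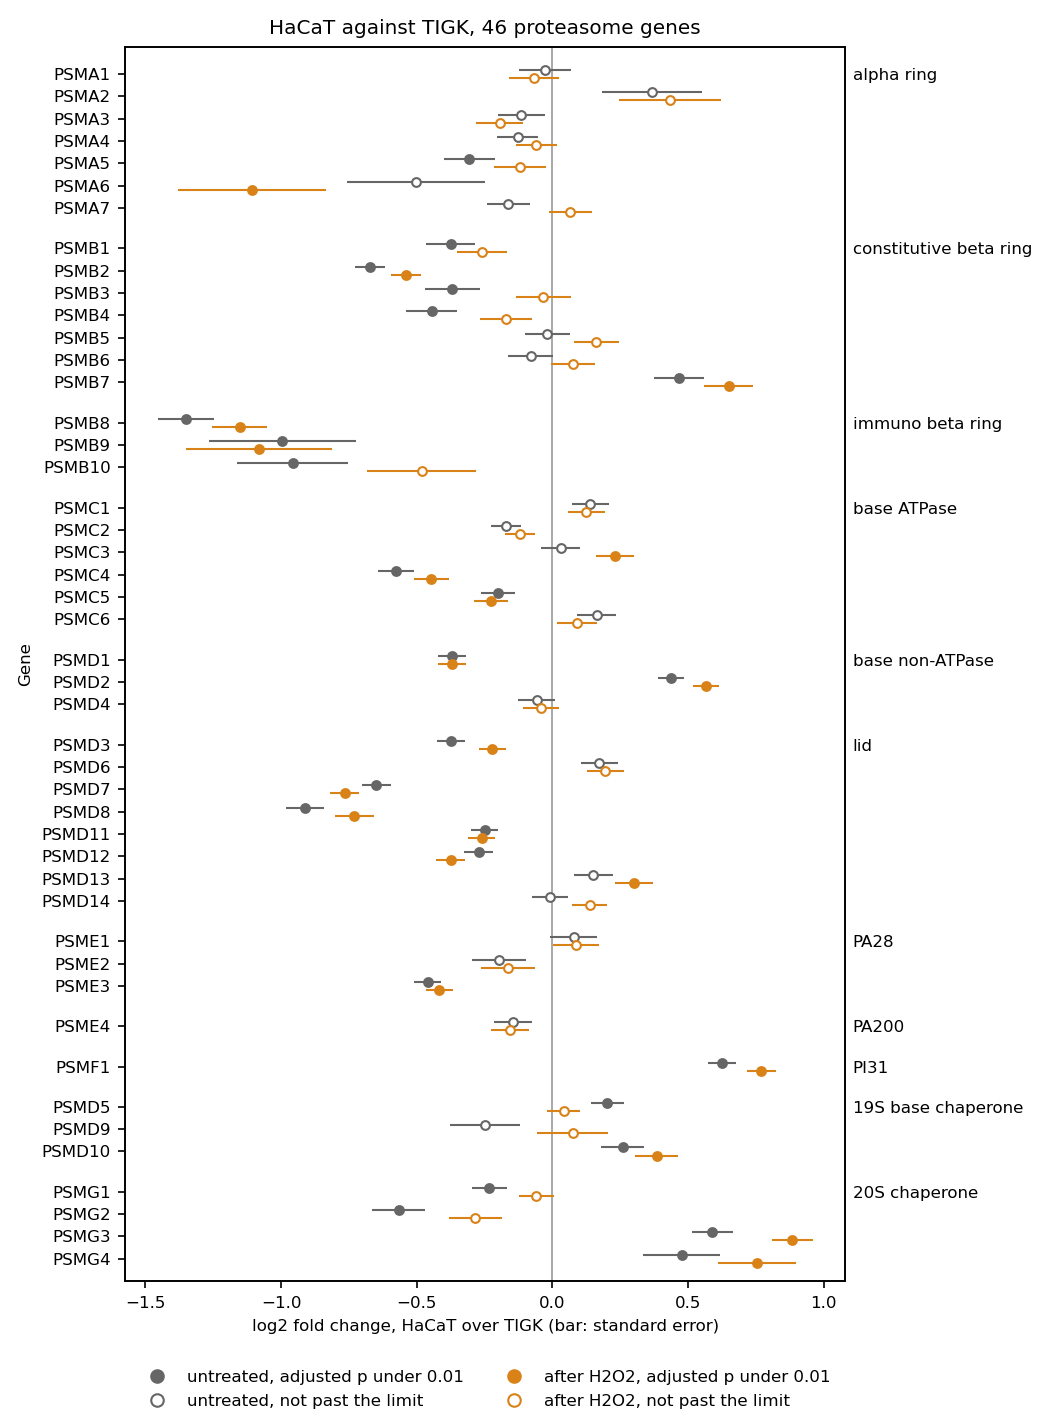
Log2 fold change of HaCaT over TIGK (horizontal axis, bars give the standard error) for the 46 tested genes, untreated (grey) and after H2O2 (orange). Filled points passed an adjusted p of 0.01; PSMB8 lies at -1.35 and -1.15 and PSMF1 at 0.62 and 0.77.

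The constitutive partners of these genes did not follow the same pattern. PSMB5 had a log2 fold change of -0.02 (SE 0.083, adjusted p = 0.857) between the untreated lines and PSMB6 one of -0.08 (SE 0.082, adjusted p = 0.395), both with overlapping libraries. PSMB7 was higher in HaCaT, by 0.47 (SE 0.091, adjusted p = 0.000157) untreated and 0.65 (SE 0.091, adjusted p = 3.57e-06) after H2O2. The share of each immunoproteasome gene in its catalytic pair was computed per length, as a description without a test. PSMB8 made up 12.4% ± 0.190 of PSMB8 and PSMB5 in untreated TIGK and 13.2% ± 0.148 after H2O2. In HaCaT it made up 5.31% ± 0.165 and 5.75% ± 0.185. The lines did not overlap, and within each line the treated libraries lay above the untreated ones. PSMB9 made up 1.85% ± 0.0997 and 1.84% ± 0.460 of its pair in TIGK and 0.984% ± 0.440 and 0.834% ± 0.0552 in HaCaT. PSMB10 made up 2.00% ± 0.266 and 1.83% ± 0.0965 in TIGK and 0.750% ± 0.0923 and 0.849% ± 0.217 in HaCaT. For the pairs of PSMB9 and PSMB10 no shift with H2O2 exceeded the spread between libraries. The share of PSMB10 is uncertain, because its level carries the reservation on shared coding bases given above.

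**Figure D5:**
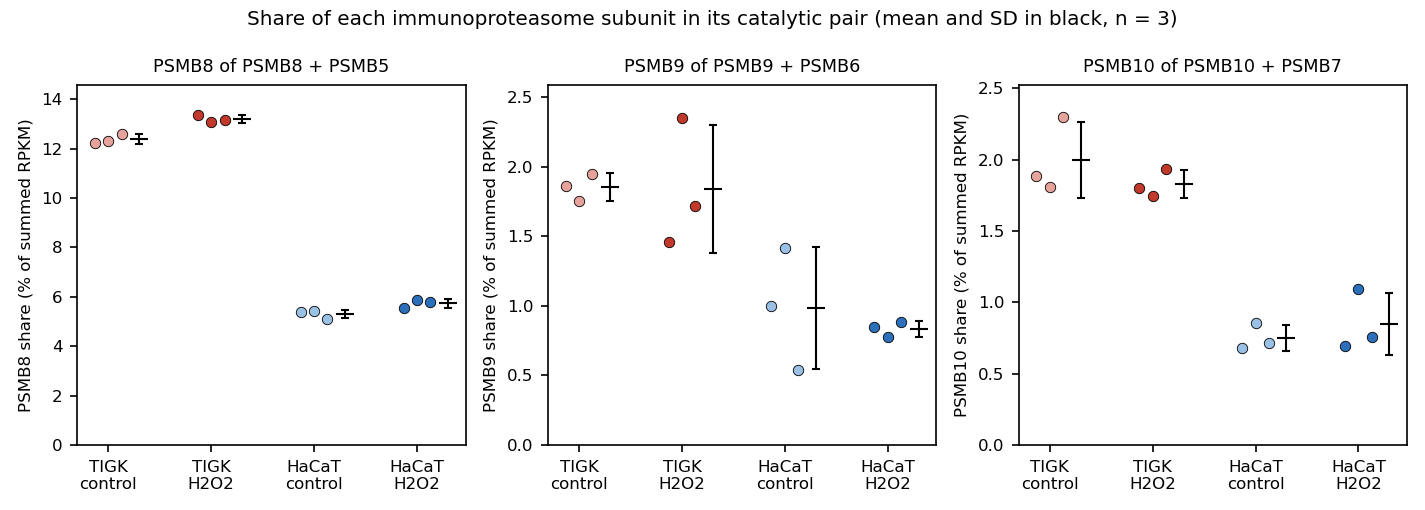
Share of PSMB8, PSMB9 and PSMB10 in their catalytic pairs (vertical axis, % of summed RPKM, from 0) in each library, with the mean and SD of each group in black. PSMB8 lies near 12% to 13% in TIGK and between 5% and 6% in HaCaT.

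In the beta ring PSMB2 was lower in HaCaT, with 11295, 10616 and 10408 in untreated TIGK and 6424, 6965 and 6903 in untreated HaCaT, a log2 fold change of -0.67 (SE 0.056, adjusted p = 2.71e-09). PSMB1, PSMB3 and PSMB4 were lower as well, by -0.38, -0.37 and -0.45, calls that were kept in 18, 16 and 19 of 19 alternative fits. After H2O2 the values of these genes were -0.26, -0.03 and -0.17, and none passed. PSMA6 was lower in HaCaT after H2O2, by -1.11 (SE 0.27, adjusted p = 0.00143), with the reservations given above.

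In the 19S particle 8 of 17 genes were lower and 1 higher in untreated HaCaT, against 30.8% and 29.1% of all genes. PSMD8 differed most, by -0.91 (SE 0.071, adjusted p = 1.09e-09), and PSMD7 followed with -0.65 (SE 0.054, adjusted p = 2.43e-09). After H2O2 PSMD7 had 4606, 4466 and 4483 in TIGK and 2607, 2630.2 and 2735 in HaCaT, a log2 fold change of -0.77 (SE 0.053, adjusted p = 2.17e-10). The scaffold PSMD2 went the other way, with 20642, 20346 and 19772 in untreated TIGK and 26726, 26932 and 28549.8 in untreated HaCaT, a log2 fold change of 0.44 (SE 0.048, adjusted p = 1.53e-07). The libraries of the lines did not overlap for any of these genes.

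The inhibitor PSMF1 was higher in HaCaT, with 5670.2, 5153 and 5546 in untreated TIGK and 8238, 8499 and 8501 in untreated HaCaT, a log2 fold change of 0.62 (SE 0.053, adjusted p = 3.35e-09). After H2O2 the log2 fold change was 0.77 (SE 0.053, adjusted p = 1.56e-10). PSME3 was lower in HaCaT, by -0.46 (SE 0.051, adjusted p = 1.43e-07) untreated and -0.42 (SE 0.051, adjusted p = 5.73e-07) after H2O2. The chaperones of the 20S core were split: PSMG3 was higher in HaCaT, by 0.59 (SE 0.076, adjusted p = 1.21e-06), and PSMG2 was lower, by -0.57 (SE 0.10, adjusted p = 4.31e-05). PSMG4 was also higher, by 0.48, and PSMG1 lower, by -0.23, and these calls were kept in 14 and 13 of 19 alternative fits.

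Genes that work with the proteasome without bearing its names were read from 4 lists. Of 9 further subunits and factors, 3 rose and 0 fell in TIGK and 6 rose and 1 fell in HaCaT, with medians of 0.21 and 0.34. Over all genes 10.2% rose and 12.9% fell in TIGK and 18.9% and 15.2% in HaCaT, with medians of 0.0084 and 0.038. PAAF1, which binds the ATPases, rose most in both lines, by 0.40 (SE 0.068, adjusted p = 0.000167) and 0.50 (SE 0.069, adjusted p = 1.37e-05). ECPAS, which tethers proteasomes to membranes and motors, fell in HaCaT, by -0.25 (SE 0.058, adjusted p = 0.00182). Between the lines, 2 were higher and 6 lower in HaCaT, untreated and after H2O2. Of all genes, 29.1% were higher and 30.8% lower in HaCaT untreated, and 30.2% and 29.8% after H2O2. USP14, a deubiquitinase of the 19S particle, was lower by -1.04 (SE 0.051, adjusted p = 9.81e-13) untreated, and ECPAS and TXNL1 were the higher ones, ECPAS with 0.82 untreated and TXNL1 with 0.88 after H2O2.

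Of 13 regulators of proteasome genes, 4 rose and 2 fell in each line, with medians of 0.15 in TIGK and 0.14 in HaCaT. Of all genes, 10.2% rose in TIGK and 18.9% in HaCaT. The shares that fell were close to the 12.9% and 15.2% of all genes given above. The subunits of NF-Y, which binds CCAAT, rose in both: NFYA by 0.31 and 0.30, NFYB by 0.40 and 0.55, and NFYC by 0.43 and 0.45. NFE2L2, the antioxidant response regulator NRF2, rose by 0.36 (SE 0.051, adjusted p = 2.37e-05) in TIGK and 0.26 (SE 0.051, adjusted p = 0.000487) in HaCaT. DDI2, the protease that activates NFE2L1, fell in both lines. It had 2154, 2457 and 2704 in untreated and 1696, 1785 and 1742 in treated TIGK, and 3731, 3640.2 and 3575 without and 2085, 1983 and 1758 with H2O2 in HaCaT, with log2 fold changes of -0.49 (SE 0.077, adjusted p = 7.42e-05) and -0.91 (SE 0.076, adjusted p = 3.31e-08). NFE2L1 itself fell in TIGK, by -0.35 (SE 0.059, adjusted p = 0.000167), and had -0.19 (SE 0.059, adjusted p = 0.0131) in HaCaT. Between the lines, 1 regulator was higher and 6 were lower in HaCaT in each condition. The shares of all genes were 29.1% and 30.8% untreated and 30.2% and 29.8% after H2O2. DDI2 was the higher one without treatment, by 0.58, and NFYB after H2O2, by 0.29. FOXO4 was the lowest in both conditions, with -1.29 and -1.40.

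Of 10 ubiquitin genes, E1 enzymes and shuttle factors, 1 rose in TIGK, where 0 fell, and 3 rose and 2 fell in HaCaT, with medians of 0.024 and 0.10. With 10.2% of all genes rising and 12.9% falling in TIGK and 18.9% and 15.2% in HaCaT, these counts say little about the list. The ubiquitin gene UBB had 4834, 4291 and 4129 in untreated and 6486, 6594 and 7622 in treated TIGK, a log2 fold change of 0.64 (SE 0.10, adjusted p = 8.78e-05). In HaCaT it had 3929.6, 4163 and 4184 without and 5275, 7172 and 7779 with H2O2, a log2 fold change of 0.72 (SE 0.10, adjusted p = 2.03e-05). UBB encodes near-identical repeats whose reads could be split between copies, so its counts are uncertain. UBA6, an E1 enzyme, fell in HaCaT, by -0.42 (SE 0.058, adjusted p = 1.3e-05). Between the lines, UBQLN1, a shuttle factor, was the highest in HaCaT in both conditions, by 0.81 and 0.84. UBQLN2, also a shuttle factor, was the lowest in untreated cells, by -0.52, and NPLOC4, a cofactor of the segregase p97, was the lowest after H2O2, by -0.48. The counts were 5 higher and 2 lower, untreated and after H2O2. They stand against 29.1% higher and 30.8% lower over all genes untreated, and 30.2% and 29.8% after H2O2.

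The listed partner genes of the immunoproteasome were mostly lower in HaCaT, as were PSMB8, PSMB9 and PSMB10. They are class I antigen processing and presentation genes and the transcription regulators NLRC5 and IRF1. Of 9 genes 7 were lower and 0 higher in untreated HaCaT, and 6 were lower and 0 higher after H2O2, with medians of -0.89 and -0.75. Among all genes 30.8% were lower and 29.1% higher untreated, and 29.8% and 30.2% after H2O2, with medians of -0.0070 and 0.018. HLA-B had 10651, 10308 and 9399 in untreated TIGK and 629.6, 646 and 505 in untreated HaCaT, a log2 fold change of -4.09 (SE 0.10, adjusted p = 3.12e-17), and after H2O2 the log2 fold change was -3.87 (SE 0.10, adjusted p = 6e-17). HLA genes are near-identical copies that differ between cell lines, so reads may be lost or split and these values are uncertain. In the H2O2 response 0 of the 9 passed in TIGK by edgeR, against 10.2% of all genes that rose and 12.9% that fell. The median of the 9 in TIGK was 0.018 and 4 had an unadjusted p under 0.05. They were split, with B2M and HLA-C at 0.21 and 0.22 and TAP2 and ERAP1 at -0.20 and -0.22. The share of all genes at this unadjusted limit was not computed. In HaCaT 3 rose and 1 fell, against 18.9% and 15.2% of all genes. B2M, the light chain of class I molecules, rose by 0.44 (SE 0.087, adjusted p = 0.000516), and the transporter TAP2 had -0.27 (SE 0.068, adjusted p = 0.00383).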

How the data were processed

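RNA of HaCaT and TIGK, untreated or after 5 mM H2O2 for 3 h, was measured in 12 libraries. The authors deposited raw counts per gene (58735 genes, GRCh38); their notes name HISAT2 2.0.0 and 2.0.5, StringTie 1.3.3b and featureCounts 1.5.0-p3, and the annotation, strand and multi-mapping settings are not given in the sources used here. The authors' fold changes and p-values of their own comparisons were not used. Labels assigned each library to its group; in these labels the formula of the added compound varies between replicates, while the treatment protocol names H2O2 for all. In the main fit replicate numbers served only as names, and they were used in the replicate block and in a check of same-numbered libraries.

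The 16618 genes whose raw counts averaged 10 or more were tested in R 4.3.3 with the quasi-likelihood test of edgeR 4.0.16, TMM scaling and 1 mean per group over all libraries, with Benjamini-Hochberg adjustment over all genes and a limit of 0.01. Common dispersion was 0.0073, with 10.4 prior degrees of freedom. RPKM used the TMM-scaled totals and the gene lengths of the table. Shared coding bases came from GENCODE 44, whose gene ends equal the table's for 8 of 48 members. The fit was tested on simulated data. Figures were drawn with matplotlib 3.10.9. Alternatives were DESeq2 1.42.0, other scalings, no filter, a limit of 0.05, a replicate block, fits on 2 groups alone, and fits without each library.

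Library totals ranged from 30426401 to 49034244. Over all tested genes together, replicates differed by more than counting noise (chi-square per degree of freedom 4.45 to 28.2 over 12 pairs). This pooled value does not show whether replicate spread or depth limits precision for genes with few counts.

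Members and lists were chosen with earlier results of these data known. Genes were named by rule: the 6 catalytic beta subunits, and the called gene with the largest rise and largest fall per comparison and particle class or list. All other genes named were chosen after their values were seen. Some genes of the lists are not reported here, and the lists are counted without them.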

Additional observations from a re-analysis of the deposited data

Results flagged for a closer look

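The H2O2 responses of the lines differed in a test of the difference itself (edgeR quasi-likelihood test, TIGK minus HaCaT) for UBQLN2, alone among the members and list genes reported here. UBQLN2, a shuttle factor that carries ubiquitinated proteins to the proteasome, had 2121, 2109 and 2068 in untreated and 2111, 2014 and 1952 in treated TIGK. In HaCaT it had 1552, 1399 and 1439 without and 1907, 2118 and 1742 with H2O2, a rise in all 3 treated libraries. The difference was -0.44 (SE 0.10, adjusted p = 0.00676). Of all genes tested, 2.32% had a higher and 2.98% a lower difference, and a single call among these genes does not exceed that share. The call was not followed through the alternative fits.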

How the results depend on the processing

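Of the calls of members, 3 of 10 in the TIGK response, 18 of 27 in the HaCaT response, 17 of 26 between the untreated lines and 17 of 21 after H2O2 were kept in every alternative fit. Of the 35 calls that the naming rule picked, 27 were kept and 0 changed direction. The number of members that rose in TIGK (9) was 14 with DESeq2, 14 with library totals alone, 24 without a filter on low counts, 19 at a limit of 0.05 and 16 in a fit of the TIGK groups alone, and 2 to 18 without 1 library. The number that fell in HaCaT (2) was 1 with library totals alone, 1 in a fit of the HaCaT groups alone, 1 without the members that share coding bases, and 1 to 2 without 1 library. Higher members in untreated HaCaT (7) numbered 4 with library totals alone and 4 to 8 without 1 library. Lower members after H2O2 (13) numbered 12 to 20 without 1 library. The log2 ratio of the summed activators in HaCaT was 0.10 with mitochondrial genes left out, against 0.13. The causes were not tested.

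Without division by gene length the share of PSMB8 was 19.4% and 20.5% in TIGK and 8.69% and 9.38% in HaCaT, and that of PSMB9 3.85% and 3.83% in TIGK and 2.06% and 1.75% in HaCaT (untreated and treated), as follows from the genes' lengths.

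Same-numbered libraries of different groups did not deviate together (0 of 18 pairs with r over 0.1, r from -0.12 to 0.026). This check does not show whether they shared a day of culture or preparation. With the replicate block, 4 members rose in TIGK and 1 fell in HaCaT, and the other counts of calls stayed within 1.5 times. Leaving out single libraries from sums and shares, and leaving out members with shared coding bases, were chosen after seeing the data. With 3 libraries a group, small changes in genes with few counts, such as PSMB9, PSMB10 and PSMA6, were the least precise.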
